A study of Mus musculus with 8 samples.

Results

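The mitochondrial ribosomal protein genes are the nuclear genes that encode the proteins of the mitochondrial ribosome. They were taken as all genes whose symbol begins with Mrpl or Mrps followed by a number, from probe sets annotated with exactly 1 symbol, and this gave 77 genes of 19938 measured. By symbol, 48 belonged to the large subunit (Mrpl) and 29 to the small subunit (Mrps). Where several probe sets named a gene, only that with the highest mean was kept. The RNA came from hearts of C57Bl6 mice aged 9 weeks, with 1 Affymetrix array for each of 8 individuals. The 4 groups held 2 animals each: wild type (WT) untreated (arrays 1 and 2), WT given PE (arrays 3 and 4), homozygous Gata4 S105A mutants untreated (arrays 5 and 6) and S105A mutants given PE (arrays 7 and 8). The S105A mutation replaces a serine of the cardiac transcription factor GATA4 with alanine. PE was given for 5 days from a subcutaneous osmotic pump (100 mg/kg/day). The labels expand PE as pseudophedrine or pseudoephedrine and do not settle whether another adrenergic agonist with this abbreviation was meant. The controls are titled untreated, while the protocol names saline, and the tissue is called whole heart in the titles and whole heart ventricle in another field.

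The mitochondrial ribosome sits at the inner membrane of the mitochondrion and translates the few messenger RNAs that mitochondrial DNA encodes, all of them for subunits of the respiratory chain and ATP synthase. Its ribosomal RNAs come from mitochondrial DNA, whereas its proteins are made in the cytosol from nuclear genes and imported. The small subunit binds the messenger RNA and decodes it, and the large subunit forms the peptide bond. Heart muscle depends on oxidative metabolism and is rich in mitochondria, and inherited defects of several of these proteins cause cardiomyopathy.

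The authors' values are on the log2 scale and were made with RMA, whose normalization takes out any shift common to most genes, and array medians lay between 6.18 and 6.23. The defining markers of heart muscle were high on every array, with a mean log2 value over 6 cardiomyocyte markers (such as Myh6 and Tnnt2) of 13.35 on array 3 and 13.54 to 13.62 on the others. The PE arrays 3 and 7 stood apart from their partners, arrays 4 and 8, in markers of other cells. The mean over 6 macrophage markers was 7.75 to 8.08 on the untreated arrays, 9.63 on array 3, 8.66 on array 4, 9.14 on array 7 and 8.36 on array 8. The mean over 6 fibroblast markers was 9.23 to 9.38 on the untreated arrays, 10.86 on array 3, 9.97 on array 4, 10.56 on array 7 and 9.89 on array 8. All 6 macrophage and all 6 fibroblast markers had positive averaged PE differences, as did 2 of the 6 cardiomyocyte markers. The mean over 3 markers of dividing cells deviated from the untreated arrays of the same genotype by 2.32 on array 3, 1.00 on array 4, 2.37 on array 7 and 0.77 on array 8. Endothelial markers, 5 in number, deviated by -0.51, -0.19, -0.13 and 0.06 on these arrays, and the erythroid gene Alas2 by -2.21, -1.62, -0.78 and -0.60. The part of these cells in the results was not tested. In RNA from whole tissue, fewer cells of a type and less RNA per cell cannot be told apart.

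The first comparison asked how the mitochondrial ribosomal protein genes differed between PE and untreated hearts. Most of them were slightly lower with PE in both genotypes. Averaged over the genotypes, 73 of 77 had a negative log2 difference, against 56% of all genes, with a median of -0.24 and a range of -0.70 to 0.17; the median of all genes was -0.02. With the linear models of limma, 0 members passed an adjusted p of 0.05 (smallest adjusted p = 0.275), as did 0.00502% of all genes, which is 1 gene. At an unadjusted p under 0.05, 36 members were lower and 0 higher, where 7.44% of all genes were lower and 9.31% higher. All 4 PE arrays lay below all 4 untreated arrays for 28 members, against 6.15% of all genes, and above them for 0 members, against 6.7%. Without arrays 3 and 7, the median was -0.13, 70 of 77 members were negative (50.5% of all genes in that fit), and 18 were lower at an unadjusted p under 0.05 (4.2% of all genes). Leaving out array 4 brought 48 members past the adjusted threshold, and leaving out any other single array brought 0. Without array 4, the gap between arrays 3 and 4 no longer enters the estimated spread, and 20.7% of all genes (4137) passed.

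**Figure D1:**
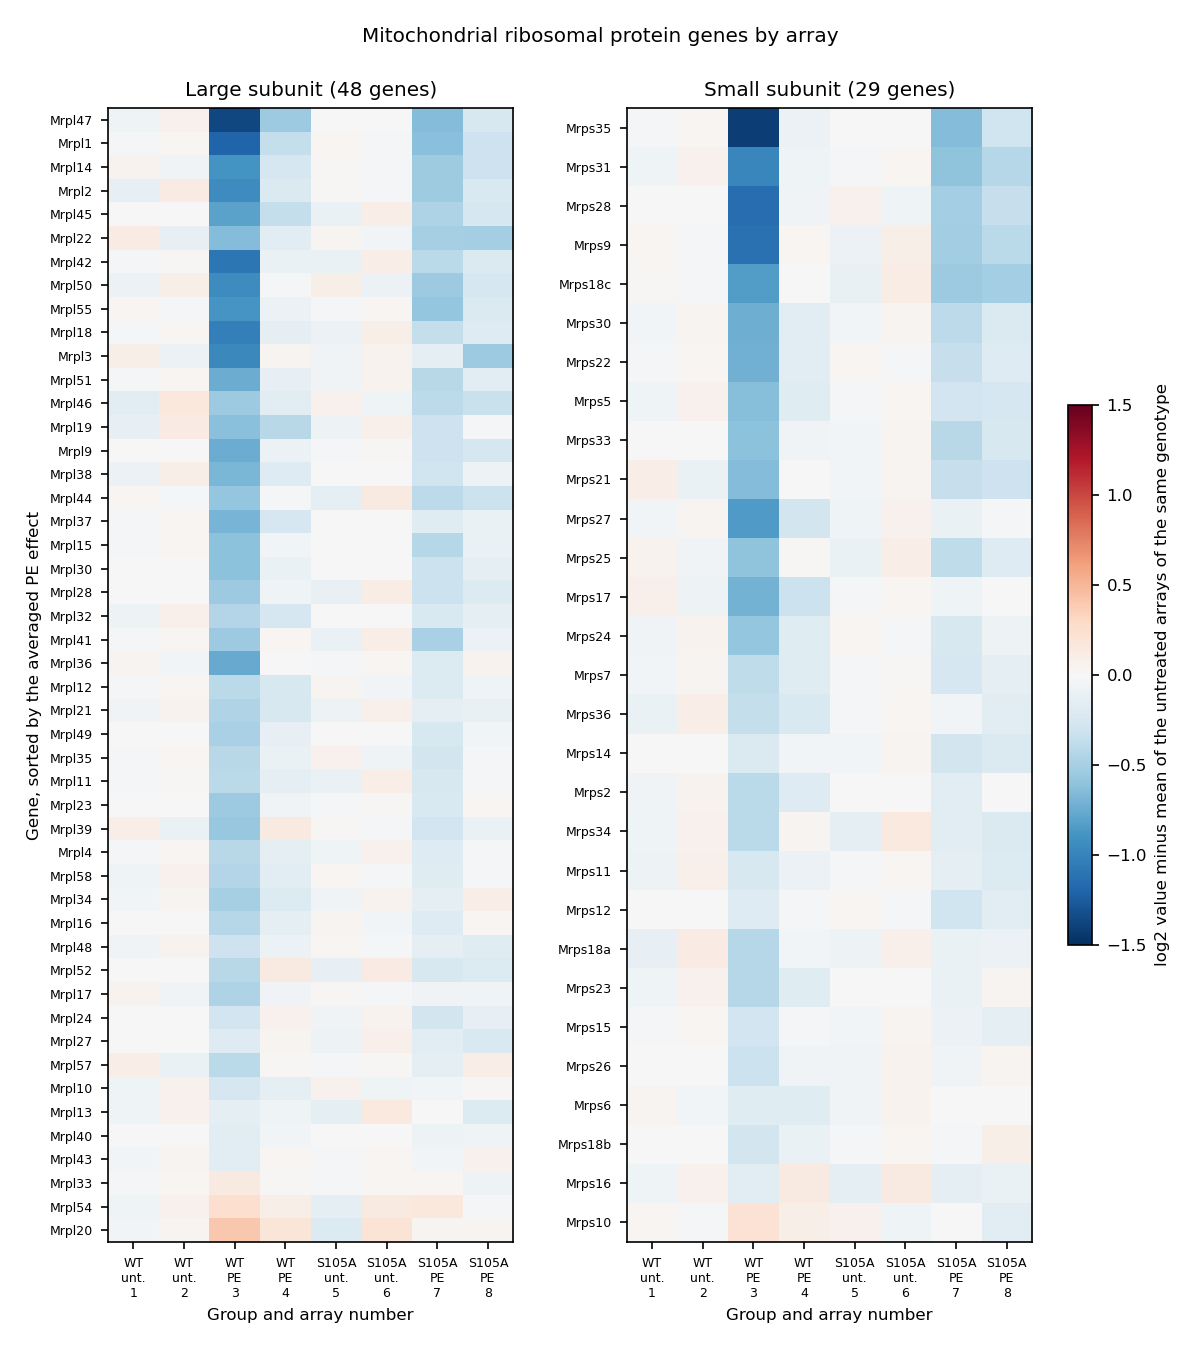
Heat map of the 77 genes (rows, sorted within each subunit by the averaged PE effect) over the 8 arrays (columns, grouped by genotype and treatment; unt. stands for untreated). Colour is the log2 value minus the mean of the 2 untreated arrays of the same genotype. Array 3 is the bluest column in both panels, with a median of -0.54 over the members, and arrays 4, 7 and 8 have medians of -0.09, -0.24 and -0.14.

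Of the large subunit proteins, Mrpl47, which lies near the exit of the peptide tunnel, had the most negative averaged difference on the probe set used, whereas its other probe set had -0.09. Its log2 values were 8.40 and 8.52 in WT untreated, 7.09 and 7.92 in WT PE, 8.38 and 8.40 in S105A untreated and 7.74 and 8.15 in S105A PE. All 4 PE arrays were below all 4 untreated arrays, with array 3 lowest. The averaged difference was -0.70 (SE 0.19, 1.63-fold, limma adjusted p = 0.275). Mrpl1, a protein of the stalk where spent transfer RNA leaves, was at 8.97 and 9.02 in WT untreated, 7.79 and 8.64 in WT PE, 9.06 and 9.01 in S105A untreated and 8.41 and 8.72 in S105A PE. The groups again did not overlap, and the difference was -0.62 (SE 0.18, adjusted p = 0.277 by limma). Mrpl14, at the face that meets the small subunit, was at 9.81 and 9.70 in WT untreated, 8.86 and 9.50 in WT PE, 9.87 and 9.84 in S105A untreated and 9.32 and 9.55 in S105A PE. This difference of -0.50 (SE 0.14) came with PE groups wholly below the untreated ones. Mrpl2, which lies close to the centre of peptide bond formation, had a difference of -0.48 (SE 0.17) and no overlap either. Array 4 was below both WT untreated arrays for each of these 4 genes. The averaged differences without arrays 3 and 7 were -0.39 for Mrpl47, -0.33 for Mrpl1, -0.28 for Mrpl14 and -0.23 for Mrpl2.

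The 4 small subunit members with the most negative differences had array 4 close to the untreated level in WT. This was not particular to the small subunit, since array 4 lay within the WT untreated range for the large subunit gene Mrpl3 too. Both WT PE arrays lay below both WT untreated arrays for 32 of 48 large and 20 of 29 small subunit genes, against 23.5% of all genes. Mrps35, a protein with no bacterial counterpart, was at 9.38 and 9.45 in WT untreated, 8.00 and 9.33 in WT PE, 9.61 and 9.63 in S105A untreated and 8.97 and 9.32 in S105A PE. Array 4 was almost at the untreated level here, and array 3 more than a log2 unit lower. The averaged difference was -0.62 (SE 0.27, limma adjusted p = 0.306). Mrps28 was at 9.62 and 9.63 in WT untreated, 8.48 and 9.57 in WT PE, 9.76 and 9.62 in S105A untreated and 9.18 and 9.35 in S105A PE. It too set array 3 apart from array 4, with an averaged difference of -0.51 (SE 0.22). For Mrps9, whose tail reaches towards the transfer RNA sites, and Mrps31 the WT groups overlapped. Mrps9 was at 8.82 and 8.77 in WT untreated, 7.68 and 8.83 in WT PE, 9.04 and 9.22 in S105A untreated and 8.61 and 8.73 in S105A PE, a difference of -0.50 (SE 0.23). Mrps31 had a difference of -0.52 (SE 0.19), with WT PE arrays at 8.27 and 9.18 against 9.18 and 9.32 in WT untreated. In S105A both genes had PE arrays below both untreated arrays. Without arrays 3 and 7 the averaged differences were -0.20 for Mrps35, -0.20 for Mrps28, -0.19 for Mrps9 and -0.25 for Mrps31. These were nearer 0 than with all arrays, as were those of the 4 large subunit genes above.

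**Figure D2:**
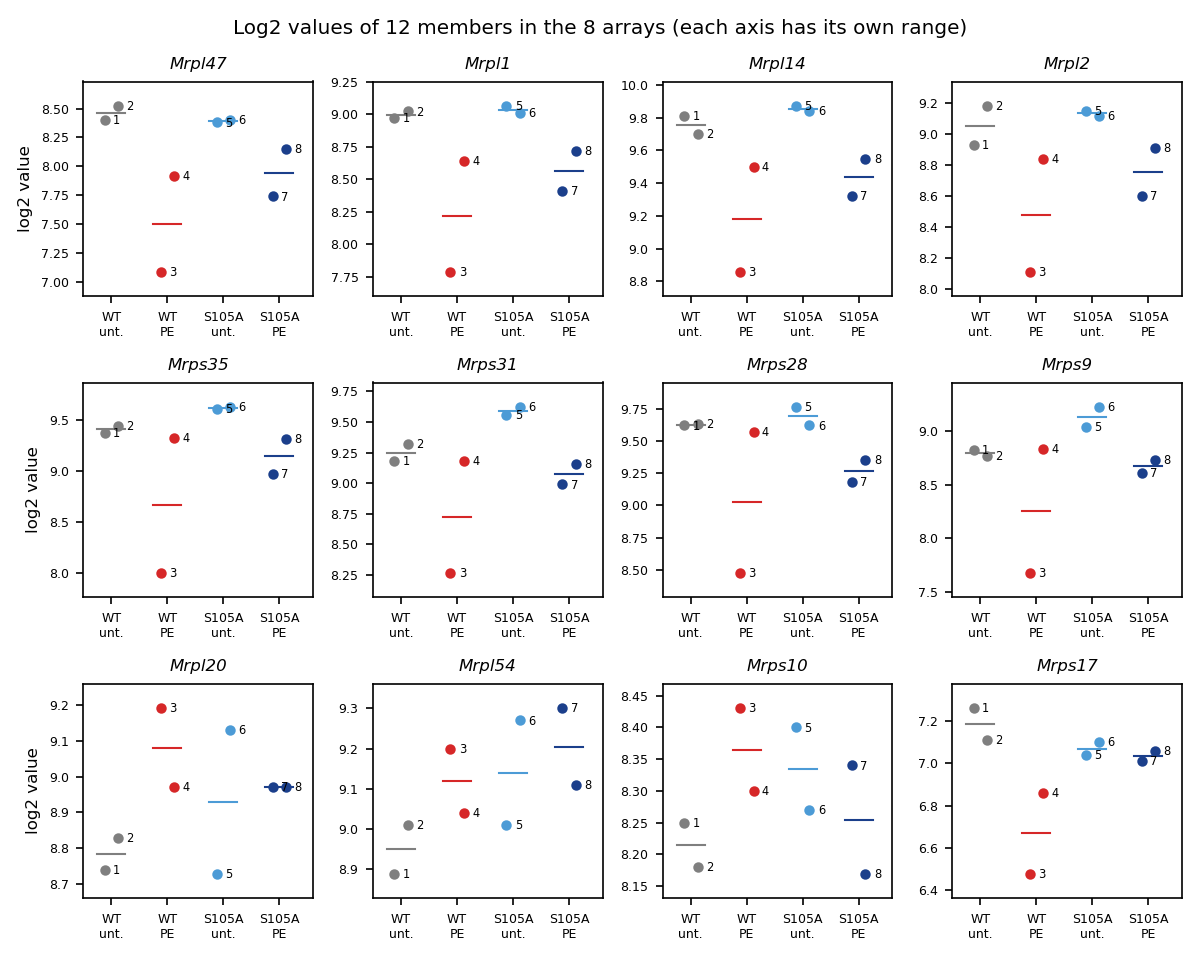
Log2 values (vertical axes, each with its own range) of 12 members in the 4 groups (horizontal axes; unt. stands for untreated), with points for the 2 arrays of a group, marked by array number, and a line at their mean. The top row shows large subunit genes and the middle row small subunit genes with the most negative averaged PE differences; the bottom row shows Mrpl20, Mrpl54 and Mrps10, which were not lower with PE, and Mrps17, whose S105A groups overlap at 7.01 to 7.10.

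A few members did not share the lower values. Mrpl20, which helps fold the large ribosomal RNA in bacteria, was at 8.74 and 8.83 in WT untreated, 9.19 and 8.97 in WT PE, 8.73 and 9.13 in S105A untreated and 8.97 and 8.97 in S105A PE. It was higher with PE in WT, where the groups did not overlap, and its averaged difference was 0.17 (SE 0.10, limma adjusted p = 0.403). Mrpl54 had a difference of 0.12 (SE 0.09), and array 3 was above both WT untreated arrays for it as well. Mrpl33 and Mrps10, a protein of the small subunit head, both had 0.03, with SEs of 0.06 and 0.07. The values of Mrpl43 (-0.03), Mrps16 (-0.07), Mrps18b (-0.08) and Mrps6 (-0.09) were negative and within 2 SEs of 0. The signs of Mrpl33, Mrps10, Mrpl43 and Mrps16 turned without arrays 3 and 7, to -0.03, -0.04, 0.05 and 0.01, and that of Mrpl33 also after a further quantile normalization (-0.03).

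Members known by their role in the heart or in the ribosome lay between these extremes. Mrpl44, a protein whose inherited loss causes cardiomyopathy in infants, was at 8.32 and 8.27 in WT untreated, 7.72 and 8.28 in WT PE, 8.42 and 8.68 in S105A untreated and 8.16 and 8.23 in S105A PE. Array 4 lay within the untreated range, and the averaged difference was -0.32 (SE 0.13, limma adjusted p = 0.292). Mrpl3, another gene of inherited cardiomyopathy, was at 10.70 and 10.52 in WT untreated, 9.64 and 10.65 in WT PE, 10.38 and 10.48 in S105A untreated and 10.30 and 9.88 in S105A PE. The lower S105A array was array 8 here, in contrast to most members. Its difference was -0.40 (SE 0.22). Mrps22, also linked to cardiomyopathy, had no overlap in either genotype and a difference of -0.36 (SE 0.12). Mrpl45, which anchors the ribosome to the inner membrane, was at 8.52 and 8.53 in WT untreated, 7.72 and 8.17 in WT PE, 8.48 and 8.68 in S105A untreated and 8.12 and 8.33 in S105A PE. All PE arrays were below all untreated arrays, and the unadjusted p of 0.00525 was the smallest among the members in this comparison (difference -0.47, SE 0.12, limma adjusted p = 0.275). Mrpl12 and Mrpl11, proteins of the stalk that recruits translation factors, had differences of -0.23 (SE 0.07) and -0.20 (SE 0.09). Mrpl37, which has no bacterial counterpart, had -0.31 (SE 0.10) and the tunnel protein Mrpl4 -0.20 (SE 0.08). Among small subunit proteins of bacterial type, Mrps7 had -0.24 (SE 0.07), Mrps2 -0.19 (SE 0.07) and Mrps14 -0.19 (SE 0.07). When arrays 3 and 7 were left out, the averaged differences were -0.16 for Mrpl44, -0.25 for Mrpl3, -0.19 for Mrps22 and -0.30 for Mrpl45.

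The Mrps18 symbols cover 3 related proteins that in structures occupy different places. Mrps18c is the small subunit protein that corresponds to bacterial S18, Mrps18b a further small subunit protein, and Mrps18a is found in the large subunit. Mrps18c was at 9.49 and 9.46 in WT untreated, 8.64 and 9.48 in WT PE, 9.75 and 9.98 in S105A untreated and 9.32 and 9.36 in S105A PE, an averaged difference of -0.47 (SE 0.17, limma adjusted p = 0.287). Its WT groups overlapped through array 4, and the averaged difference was -0.25 without arrays 3 and 7. Mrps18a had a difference of -0.17 (SE 0.11) and Mrps18b of -0.08 (SE 0.07). Mrps30, named for the small subunit but found in the large one, had -0.38 (SE 0.13). Mrps36, which is a subunit of the oxoglutarate dehydrogenase complex despite its symbol, had -0.20 (SE 0.07).

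The second comparison set the large against the small subunit, first in the PE effect, where the subunits had nearly the same values. The mean averaged PE difference was -0.26 over the 48 large subunit genes and -0.26 over the 29 small subunit genes. The medians were -0.23 and -0.24. Negative values were found for 45 of 48 large and 28 of 29 small subunit genes, against 56% of all genes. All PE arrays lay below all untreated arrays for 19 of 48 and 9 of 29, against 6.15% of all genes. On single PE arrays the mean deviation from the untreated arrays of the same genotype was -0.54 for both subunits on array 3, -0.11 (large) and -0.09 (small) on array 4, -0.27 and -0.25 on array 7, and -0.13 and -0.17 on array 8. The subunits thus lay within 0.04 log2 units of each other on every PE array, while the members' mean on array 3 was 0.44 below that on array 4 (8.66 against 9.10). Large minus small was -0.009 in WT and 0.009 in S105A, where the spread of this quantity between arrays of a group was 0.021 (SD, pooled over the 4 groups). In S105A it was 0.037 without arrays 3 and 7. Between the genotypes without PE the subunits were further apart. The mean of S105A minus WT was 0.04 over the large and 0.09 over the small subunit genes, with medians of 0.02 and 0.08. Both S105A arrays lay above both WT arrays for 13 of 48 and 14 of 29, against 21.8% of all genes. They lay below for 7 of 48 and 6 of 29, against 22.7%. Large minus small was -0.048 there, larger in size than the SD of 0.021, and -0.052 to -0.044 with 1 array left out. With PE it was -0.030, and 0.005 without arrays 3 and 7. No p was given for these differences, since the members were chosen with earlier results known.

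Proteins with a bacterial counterpart and those particular to mitochondria were also set side by side, as a description chosen after the values were seen. The Mrpl genes were assigned by symbol number alone, with those up to Mrpl36 counted as having a bacterial counterpart. This split is approximate, because a higher number does not exclude such a counterpart. The median averaged PE difference was -0.22 over 46 genes of the first kind and -0.31 over 30 of the second, with Mrps36 in neither. The 10 genes of the second kind with Mrps symbols, Mrps30 among them, were all negative, from -0.62 (Mrps35) to -0.09 (Mrps26). Both kinds, so assigned, spanned most of the members' range, from -0.62 to 0.17 and from -0.70 to 0.12. The lower end of -0.70 was that of Mrpl47, which its number placed in the second kind, as it did Mrpl55 (-0.44). Both may belong to the first kind, and the medians were not computed with them moved.

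In WT hearts alone, PE went with a median difference of -0.30 over the members, with 73 of 77 negative, against 51.1% of all genes. Again 0 members passed an adjusted p of 0.05 by limma, where 0.00502% of all genes did. At an unadjusted p under 0.05, 24 were lower and 0 higher, against 5.76% and 5.99% of all genes. Both PE arrays lay below both untreated arrays for 52 members and above for 3, against 23.5% and 22.7% of all genes. Array 3 was below both untreated arrays for 73 members (43.1% of all genes) and array 4 for 52 (34.9%). Array 3 was the lowest of the 8 arrays for 72 members, where it was lowest for 25.9% of all genes. Array 8 was lowest for 2 members (6.34% of all genes), and arrays 1, 4 and 5 for 1 each (8.9%, 6.82% and 11.8%). The median over the members of array 3 minus array 4 was -0.41, against -0.05 between the WT untreated arrays. The median PE difference in WT was -0.09 without array 3 and -0.54 without array 4, and the number past the adjusted threshold was 46 without array 4, where 17.8% of all genes (3541) passed, and 0 without any other single array. Mrps17 had the smallest unadjusted p, with log2 values of 7.26 and 7.11 in WT untreated and 6.48 and 6.86 in WT PE, a difference of -0.51 (SE 0.13, limma adjusted p = 0.419), which was -0.32 without array 3. Mrpl19 was at 8.82 and 9.07 without PE and 8.32 and 8.53 with it, a difference of -0.52 (SE 0.14), and Mrpl47 had -0.95 (SE 0.26).

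In S105A hearts alone, the median difference over the members was -0.19, with 72 of 77 members negative, against 56.4% of all genes. By limma 0 members passed an adjusted p of 0.05, as did 0% of all genes, and at an unadjusted p under 0.05, 3 were lower and 0 higher, against 2.77% and 3.09% of all genes. Both PE arrays lay below both untreated arrays for 51 members, against 25.2% of all genes, and above for 0, against 20.2%. Array 7 was below both untreated arrays for 69 members (47.7% of all genes) and array 8 for 54 (35.1%). The median of array 7 minus array 8 was -0.13 over the members, and the median PE difference without array 7 was -0.14. The 3 genes at an unadjusted p under 0.05 were Mrpl22, Mrps14 and Mrps12. Mrpl22, a protein that lines the peptide tunnel, was at 8.22 and 8.14 in S105A untreated and 7.68 and 7.67 in S105A PE, a difference of -0.51 (SE 0.17, limma adjusted p = 0.765). Mrps14 had -0.24 (SE 0.09), and Mrps12, which takes part in decoding, -0.22 (SE 0.09). Mrps12 was at 6.83 and 6.78 in S105A untreated and 6.51 and 6.64 in S105A PE, not far above the array medians of 6.18 to 6.23. In both genotypes at once, 70 of 77 members had negative differences, against 37.4% of all genes, and PE arrays below untreated arrays with no overlap were found for 36, against 9.53% of all genes.

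**Figure D3:**
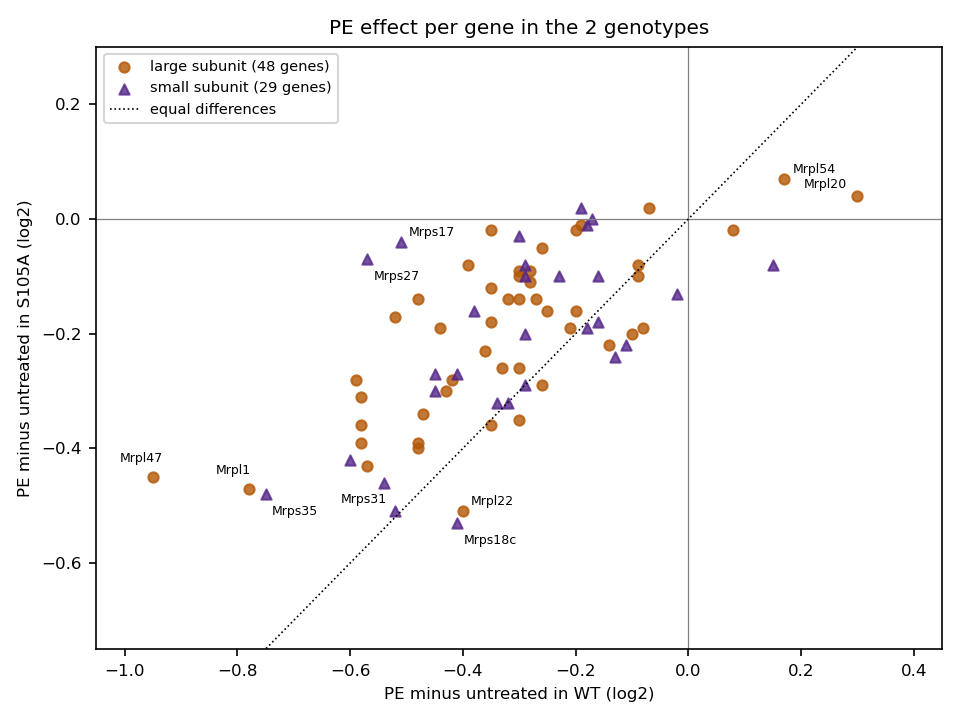
PE minus untreated (log2) in WT (horizontal axis) and in S105A (vertical axis) for each of the 77 genes, with circles for the large and triangles for the small subunit and a dotted line where both are equal. Most points lie in the lower left, negative in both genotypes, and above the dotted line, 59 of 77 being more negative in WT, and both symbols are spread over the same area.

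The third comparison asked whether the PE effect on these genes differed between the genotypes. The difference was positive, meaning less negative in S105A, for 59 of 77 members and negative for 18, where 52.5% of all genes were negative. The median was 0.14, and -0.01 over all genes. By limma 0 members passed an adjusted p of 0.05, as did 0% of all genes. At an unadjusted p under 0.05, 1 was higher (0.903% of all genes) and 0 lower (1.52%). That gene was Mrps17, with a PE effect of -0.04 (SE 0.13) in S105A and an interaction of 0.47 (SE 0.19, limma adjusted p = 1.00), which was 0.28 without array 3. The median turned to -0.09 without array 3 and to -0.05 without arrays 3 and 7, and was 0.33 without array 4, so its sign rested on array 3.

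Without PE, the members differed little between genotypes, and in both directions. The median of S105A minus WT was 0.06, with 44 of 77 positive and 33 negative, where 49.1% of all genes were negative. Both S105A arrays lay above both WT arrays for 27 members (21.8% of all genes) and below for 13 (22.7%). By limma 0 members passed an adjusted p of 0.05, as did 0% of all genes. At an unadjusted p under 0.05, 3 members were higher, against 2.43% of all genes, and 0 lower, against 2.53%. Mrpl22 was at 7.79 and 7.54 in WT untreated and 8.22 and 8.14 in S105A untreated, 0.51 higher (SE 0.17, limma adjusted p = 0.962), and with PE it was 0.40 higher (SE 0.17). It lies on chromosome 11, as does Mrpl27, at 9.57 and 9.57 in WT and 9.75 and 9.90 in S105A (0.25, SE 0.10). The other Mrpl27 probe set did not separate the genotypes, at 8.40 and 8.32 in WT untreated and 8.38 and 8.42 in S105A untreated. Mrps12 was 0.23 higher (SE 0.09), at 6.58 and 6.56 in WT untreated and 6.83 and 6.78 in S105A untreated. The 3 members on chromosome 14, which carries Gata4, had 0 unadjusted p values under 0.05 in either genotype comparison. Mean levels over all members were 9.18 and 9.22 in WT untreated and 9.23 and 9.30 in S105A untreated.

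With PE, 71 of 77 members were higher in S105A than in WT and 6 lower, where 53.1% of all genes were lower. The median was 0.16, and -0.01 over all genes. By limma 0 members passed an adjusted p of 0.05, as did 0% of all genes, and at an unadjusted p under 0.05, 5 were higher (1.25% of all genes) and 0 lower (1.43%). Both S105A PE arrays lay above both WT PE arrays for 9 members, against 10.5% of all genes, a share close to the background. They lay below for 0 members, against 13% of all genes. The smallest unadjusted p was that of Mrps6, at 8.80 and 8.80 in WT PE and 9.08 and 9.06 in S105A PE, a difference of 0.27 (SE 0.08, limma adjusted p = 0.989). Mrps36 had 0.29 (SE 0.11) and Mrps17 0.36 (SE 0.13). This comparison rested on array 3 as well. Without array 3 the median was -0.04, without arrays 3 and 7 it was 0.02, and without array 4 it was 0.33, where 15 members and 3.57% of all genes (711) passed the adjusted threshold.

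Genes that build and serve the mitochondrial ribosome had like values with PE, from lists chosen by function. Of a list of 6 further ribosome proteins, which includes the members Mrpl57 and Mrpl58 and so is not separate from them, 6 were lower in the averaged PE effect (median -0.29), among them Dap3, a GTP-binding small subunit protein (-0.34, SE 0.12), Ptcd3 (-0.46) and Gadd45gip1 (-0.43). Of 13 mitochondrial translation factors 13 were lower (median -0.24), with the elongation factor Guf1 at -0.36 (SE 0.08), the release factor Mtrf1l at -0.43 and the initiation factor Mtif3 at -0.24. Of 28 genes of ribosome assembly and ribosomal RNA modification 27 were lower (median -0.27), such as the RNA methyltransferase Mrm3 (-0.48, SE 0.13), Trmt10c, a subunit of mitochondrial RNase P, (-0.38) and Mterf4 (-0.26). Of 16 mitochondrial aminoacyl-tRNA synthetases analysed 16 were lower (median -0.18), with Cars2 at -0.35, Yars2 at -0.36 and Nars2 at -0.29. Of 15 genes of mitochondrial DNA maintenance and transcription 14 were lower (median -0.32), including the RNA polymerase Polrmt (-0.31, SE 0.09), Mterf2 (-0.56) and Dguok (-0.40). Of 82 nuclear genes of the respiratory chain and ATP synthase 80 were lower (median -0.29). In each of these 6 lists 0 genes passed an adjusted p of 0.05 by limma. At an unadjusted p under 0.05 there were 4, 7, 11, 7, 8 and 21 lower genes, in the order given, and 0 higher genes. Of all genes 7.44% were lower and 9.31% higher at that p, and 56% had a negative difference. Without arrays 3 and 7, an alternative added after seeing the data, the medians of these lists were -0.12, -0.13, -0.10, -0.10, -0.15 and -0.09 in the same order, with 5, 11, 25, 15, 13 and 80 lower genes. In that fit 50.5% of all genes had a negative difference. Cytosolic ribosomal proteins did not share the sign. Of 62 such genes 50 were higher (median 0.08), and Rpl10 had a difference of 0.38 (SE 0.11). At an unadjusted p under 0.05, 14 were higher and 2 lower, against 9.31% and 7.44% of all genes, and 0 passed the adjusted threshold. The median of the cytosolic ribosomal proteins was 0.04 without arrays 3 and 7.

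**Figure D4:**
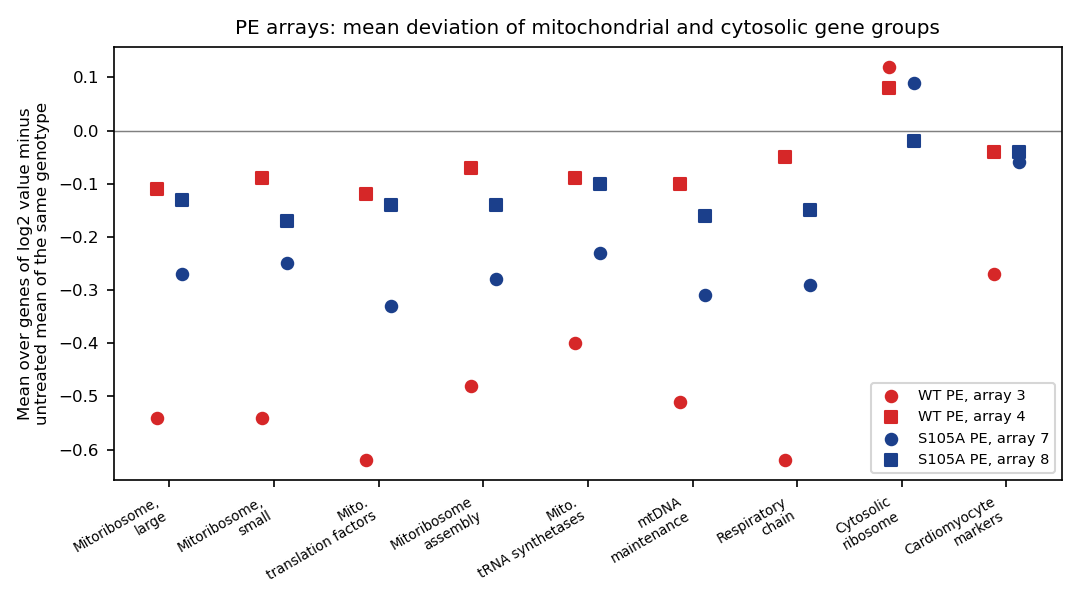
Mean over genes of the log2 value minus the untreated mean of the same genotype (vertical axis) for 9 gene groups (horizontal axis) on the 4 PE arrays, red for WT and blue for S105A, circles for arrays 3 and 7 and squares for arrays 4 and 8. In the 7 mitochondrial groups array 3 is lowest (-0.62 to -0.40) and array 7 next (-0.33 to -0.23), whereas the cytosolic ribosome lies between -0.02 and 0.12.

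In these 6 lists and in the members array 3 was lowest and array 7 next, with arrays 8 and 4 nearer the untreated level. For the members the mean deviation was -0.54 on array 3, -0.26 on array 7, -0.15 on array 8 and -0.10 on array 4. For the respiratory chain it was -0.62, -0.29, -0.15 and -0.05, and for translation factors -0.62, -0.33, -0.14 and -0.12, in the same order of arrays. In the list of 6 further ribosome proteins arrays 8 (-0.10) and 4 (-0.13) changed places. Cardiomyocyte markers had -0.27, -0.06, -0.04 and -0.04, fibroblast markers 1.53, 1.31, 0.64 and 0.65, and macrophage markers 1.64, 1.39, 0.61 and 0.67.

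Transcription factors and coactivators known to act on nuclear genes for mitochondria were mixed, and 0 of 11 passed an adjusted p of 0.05 by limma. At an unadjusted p under 0.05, 2 were lower and 1 higher, against 7.44% and 9.31% of all genes. Ppargc1a, the coactivator PGC-1 alpha of mitochondrial biogenesis, was at 10.45 and 10.62 in WT untreated, 8.99 and 10.55 in WT PE, 10.69 and 10.64 in S105A untreated and 10.20 and 10.46 in S105A PE. Array 3 was lowest by more than a log2 unit, and the averaged difference was -0.55 (SE 0.31, limma adjusted p = 0.382), or -0.09 without arrays 3 and 7. Its relative Ppargc1b had -0.33 (SE 0.10) and the nuclear receptor gene Esrra -0.35 (SE 0.12). Myc, a transcription factor of cell growth, had 0.73 (SE 0.16, limma adjusted p = 0.275) and was higher on all 4 PE arrays than on all untreated ones. Nrf1 (-0.08), Gabpa (-0.13), Gabpb1 (0.03), Yy1 (-0.06), Sp1 (0.09), Pprc1 (0.17) and Tead1 (0.02) had smaller differences.

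The members' promoters were read for short motifs of factors that act on such genes. RefSeq promoter windows (mouse build GRCm38.p6, 250 bases before to 50 after a start) matched 68 of 77 members, with 74 windows. The ETS motif CCGGAAG, which GABPA can bind, was in 33.8% of member windows on either strand, against 12.1% of the 19115 windows of all genes. The YY1 motif AAGATGGC was in 16.2% against 3.19%, and the palindromic NRF1 motif in 4.05% against 1.45%. The SP1 motif GGGCGG (52.7% against 49.3%), the E-box CACGTG (9.46% against 8.26%) and the ERR motif AAGGTCA (5.41% against 3.82%) were at shares closer to those of all windows. A match is a description of letters and not a bound site. Members with an ETS match had a median averaged PE difference of -0.18 (25 genes) and those without -0.27 (43 genes). For YY1 these were -0.24 (12 genes) and -0.23 (56 genes). Windows of 4 members, cut to 280 bases that end 30 bases after the start, are shown with every match to the 6 motifs in capitals. They were picked after the values were seen. Mrpl32 has NRF1, YY1 and SP1 matches (chr13:14613008-14613287, minus strand), Mrps18a (chr17:46110754-46111033, plus strand) and Mrps27 (chr13:99344536-99344815, plus strand) have an ETS and a YY1 match, and Mrpl47 (chr3:32736726-32737005, minus strand), whose averaged difference was -0.70 on the probe set used and -0.09 on the other, has none of these letters.
Mrpl32: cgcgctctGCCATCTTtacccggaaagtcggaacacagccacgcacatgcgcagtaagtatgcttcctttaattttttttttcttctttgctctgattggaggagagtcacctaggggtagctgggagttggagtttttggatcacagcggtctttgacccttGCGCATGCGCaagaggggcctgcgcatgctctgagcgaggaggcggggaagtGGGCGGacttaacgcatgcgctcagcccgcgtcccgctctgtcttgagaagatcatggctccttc
Mrps18a: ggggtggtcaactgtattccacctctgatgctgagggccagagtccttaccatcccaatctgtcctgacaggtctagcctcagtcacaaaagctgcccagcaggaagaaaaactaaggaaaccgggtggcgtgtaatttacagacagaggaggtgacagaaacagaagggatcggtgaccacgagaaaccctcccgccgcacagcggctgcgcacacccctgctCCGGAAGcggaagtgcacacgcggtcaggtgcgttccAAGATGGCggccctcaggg
Mrps27: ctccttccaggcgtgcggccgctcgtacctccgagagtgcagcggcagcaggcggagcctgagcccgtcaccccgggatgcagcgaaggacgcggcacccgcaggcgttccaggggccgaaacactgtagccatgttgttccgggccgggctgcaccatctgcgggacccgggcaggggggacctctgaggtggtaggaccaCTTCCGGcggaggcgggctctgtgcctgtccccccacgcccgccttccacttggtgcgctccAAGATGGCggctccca
Mrpl47: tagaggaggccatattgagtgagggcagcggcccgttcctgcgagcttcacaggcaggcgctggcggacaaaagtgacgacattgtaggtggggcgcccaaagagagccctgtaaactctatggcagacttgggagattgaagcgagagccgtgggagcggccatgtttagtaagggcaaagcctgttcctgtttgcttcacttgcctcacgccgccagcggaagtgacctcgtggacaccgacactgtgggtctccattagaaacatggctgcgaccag
Mrpl32 is a large subunit protein that is trimmed by a protease of the inner membrane before it enters the ribosome. It was at 8.42 and 8.58 in WT untreated, 8.06 and 8.25 in WT PE, 8.45 and 8.46 in S105A untreated and 8.23 and 8.32 in S105A PE. All 4 PE arrays were below all untreated arrays, with a difference of -0.27 (SE 0.07, limma adjusted p = 0.275). Mrps27, an RNA-binding repeat protein, was at 8.40 and 8.48 in WT untreated, 7.59 and 8.16 in WT PE, 8.33 and 8.46 in S105A untreated and 8.29 and 8.36 in S105A PE, so that its difference of -0.57 in WT (-0.29 without array 3) stood beside -0.07 in S105A. The members with YY1 or ETS letters, such as Mrps18a at -0.17 and Mrps27 at -0.32, lay among the others.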

How the data were processed

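RNA from snap-frozen hearts was labelled with biotin and hybridized, per the labels' protocols. The deposited log2 values are the authors' RMA output, per the submitters' processing notes, which name no version, and the number of arrays limits the precision. Of 35557 rows, 21789 probe sets had 1 gene symbol, 1621 several and 12147 none. One group coefficient model was fitted to all 19938 genes and 8 arrays (limma 3.58.1 under R 4.3.3, with lmFit and eBayes and 4 residual degrees of freedom). The two-sided p values carry a Benjamini-Hochberg adjustment across every gene. Differences are PE minus untreated or S105A minus WT. On simulated data with 200 genes changed, the averaged PE effect was called for 88.0% of genes changed 2-fold and 97.8% changed 4-fold. The simulated noise was independent between genes and held no deviation shared over an array, unlike the gap between arrays 3 and 4. These shares therefore do not give the power in the real data, where 1 gene passed for the averaged PE effect. The members' differences were under 2-fold. The members and lists were chosen with earlier results of these data known. Members were named by rule: 4 extremes per subunit and direction of the averaged PE effect, up to 3 per direction by unadjusted p elsewhere, and a fixed set by role; Mrpl32, Mrps26 and Mrps27 were added after their values were seen. Probe set levels were compared for keeping the highest mean per gene, for the filter among the alternatives and for the markers called high. The level of Mrps12 was set beside the array medians. No other levels of probe sets were compared with each other. Mitochondrially encoded genes, Aurkaip1, Pdf and Mterf1a were not analysed here. Figures were drawn with matplotlib 3.10.9. No filter on low values was applied. Alternatives were another probe set summary, a filter, a further normalization, other variance models, fits of only the groups compared, leaving out arrays, and structural subunit assignment.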

Additional observations from a re-analysis of the deposited data

Results flagged for a closer look

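Mrps17, a small subunit protein of bacterial type, was singled out because the order of the genotypes' arrays turned with PE, although neither genotype comparison passed (limma adjusted p = 0.998 and 0.989). Both S105A arrays were below both WT arrays without PE (7.04 and 7.10 against 7.26 and 7.11, a difference of -0.11 with SE 0.13) and above them with PE (7.01 and 7.06 against 6.48 and 6.86). The order without PE rested on 7.10 against 7.11. Of all genes, 22.7% were lower in S105A with no overlap without PE, and 10.5% were higher with no overlap with PE. The difference between the genotypes in the PE effect was 0.47 (SE 0.19), with an unadjusted p of 0.0433 and an adjusted p of 1.00 by limma, so it did not pass. It was 0.28 without array 3. Mrps17 was the 1 member of 77 at an unadjusted p under 0.05 with a positive difference, where 0.903% of all genes were.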

How the results depend on the processing

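The direction of the median PE difference over the members was negative in WT, in S105A and in their average under every alternative run. Leaving out 1 array at a time gave medians of -0.54 to -0.09 in WT, -0.24 to -0.14 in S105A and -0.32 to -0.15 in the average, and counts past the adjusted threshold of 0 to 46, 0 to 0 and 0 to 48. For the difference in PE effect the medians were -0.09 to 0.33 (count 0 to 0), for the genotype effect without PE 0.01 to 0.07 (0 to 0) and with PE -0.04 to 0.33 (0 to 15). Large minus small ranged from -0.016 to -0.002 in WT, -0.019 to 0.037 in S105A, -0.014 to 0.014 in the average, -0.010 to 0.046 for the difference in PE effect, -0.052 to -0.044 without PE and -0.058 to -0.002 with PE. Without arrays 3 and 7 the WT median was -0.09, the median of the difference in PE effect -0.05, and large minus small 0.037 in S105A, 0.053 for the difference in PE effect and 0.005 for the genotype effect with PE, which was 0.003 with medians over subunits in place of means (-0.030 with means). The other alternatives moved the medians and large minus small by less than the spread between arrays of a group (SD 0.16 and 0.021). With 1 array left out, the lone array of a group is assumed to vary like the other groups. Of 44 named values, 22 passed the threshold without array 4 and 0 under any other alternative; With 1 array left out, Mrpl43 ranged from -0.08 to 0.02 (positive without array 3) and Mrps10 from -0.01 to 0.08 (negative without array 7). Without arrays 3 and 7, Mrpl33 was -0.03, Mrpl43 0.05, Mrps10 -0.04 and Mrps16 0.01, and Mrpl33 was -0.03 after a further quantile normalization. The cause was not tested. No paired analysis was possible because the individuals are numbered 1 to 8 and the groups share no number. The labels describe separate animals, and 2 per group limit the precision; low values were not set against background.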

Other observations

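For 8 members a further probe set was present and not used above. The averaged PE differences of both probe sets were -0.70 and -0.09 for Mrpl47, -0.37 and -0.24 for Mrpl51, -0.34 and -0.33 for Mrps5, and -0.20 and -0.17 for Mrps36, with the one used above given first. Both were the same to 2 decimals for Mrpl23 (-0.20), Mrpl27 (-0.13), Mrpl41 (-0.27) and Mrps33 (-0.33). Of the Mrpl27 probe sets, only the one used separated the genotypes without PE. The second probe set of Mrpl47 was at 6.95 and 7.24 in WT untreated, 6.98 and 7.17 in WT PE, 7.21 and 7.52 in S105A untreated and 7.18 and 7.25 in S105A PE, so that the Mrpl47 difference was seen by 1 of its 2 probe sets. The reference gene table names pseudogenes of 4 members, Mrpl23, Mrpl27, Mrpl48 and Mrps36, whose probe sets may read both copies.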
